A study of Mus musculus with 12 samples.

Results

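Lactate-treated Hk2-deleted hepatic stellate cells were compared with activated control cells to ask what remains different after lactate. Stellate cells are liver pericytes that store vitamin A. On activation they lose their retinoid stores and become contractile myofibroblasts that lay down fibrillar collagen, the scar of liver fibrosis. Hexokinase 2, the product of Hk2, catalyses the first step of glycolysis, whose end product lactate can also serve as a donor for histone lactylation. The title of the series names that mark in stellate cell activation.

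All cells were primary stellate cells from livers of mice with the Hk2 fl/fl genotype, isolated by density gradient centrifugation, and every library below except the quiescent ones comes from cells cultured for 6 days in medium with 1000 mg/L glucose and 10% serum. Control cells (ACT) had been transduced with an adenovirus expressing eGFP. Deleted cells (KO) had received an adenovirus expressing Cre recombinase fused to eGFP, and lactate-treated cells (LAC) were such deleted cells given 10 mM lactate for 24 h. Freshly isolated untreated cells (QS) served as the quiescent state. The members were the 3 LAC and 3 ACT libraries, 6 of the 12 libraries of the series, with all 12081 genes of the deposited table. KO and QS values are given beside them for orientation. LAC differs from ACT in the virus, in the Hk2 allele and in lactate. KO shares the virus and the deletion with LAC and lacks the lactate, while Cre and the loss of Hk2 cannot be told apart, and no control cells with lactate were analysed here. KO and LAC libraries also differed in the level of Hk2 and of markers of other liver cells, given below. Separate animals or cultures are not stated for the 3 libraries within each group, and the p-values therefore reflect variation among these libraries that could be technical.

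Values are read counts scaled to library size by the authors (counts per 1e6 reads, CPM). The value of a single read, taken from the lowest genes, put the depth at 11.4 to 14 M reads for ACT and 8.67 to 11.0 M reads for LAC (M, 1e6), where 3 reads correspond to at most 0.260 and 0.338 CPM. Replicates were close, with a median coefficient of variation of 2.04% for ACT and 2.42% for LAC among genes above 200 CPM. Of 14 stellate cell markers 12 were higher and 1, Des (desmin), lower in LAC than in ACT by the test below (median log2 fold change 0.84). The share called was 92.9%, against 49.5% of all genes. Des, Pdgfrb and Reln stood at 186, 159 and 305 CPM in LAC.

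Lactate-treated deleted cells stayed far from control cells. In limma's test on log2(CPM + 1), 3362 genes (27.8% of those tested) were higher and 2618 (21.7%) lower in LAC than in ACT at an adjusted p under 0.05, together 49.5% of genes. Most of these differences were small: 51.8% of the genes called differed by less than 1.5-fold. At least 2-fold were 781 higher (6.46%) and 743 lower (6.15%), and at least 8-fold were 56 higher and 46 lower. The libraries of LAC and ACT did not overlap in 62.8% of genes. For comparison, 36.0% of genes were higher and 26.3% lower in KO than in ACT, a comparison that shares the ACT libraries. In 25.0% of genes all 3 LAC libraries lay between the KO and the ACT libraries, in 7.81% they lay above every ACT and KO library, and in 5.21% below every one.

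**Figure D1:**
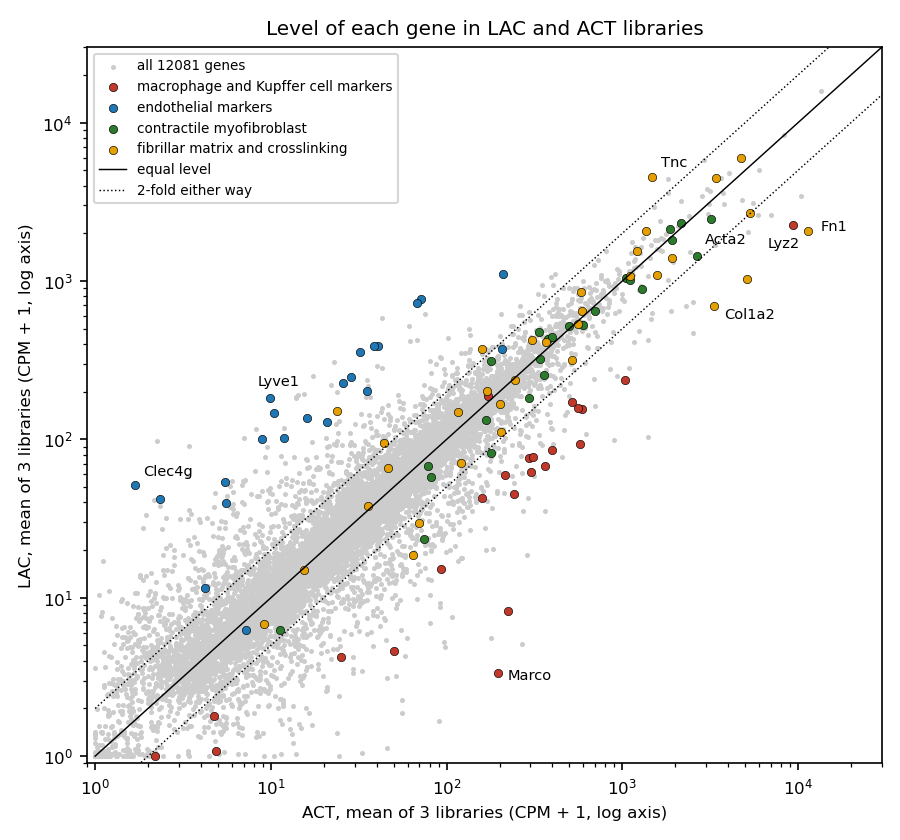
Mean level of each of 12081 genes in LAC (vertical) against ACT (horizontal), as CPM + 1 on log axes, with 4 gene lists in colour; the solid line marks equal levels and the dotted lines a 2-fold difference. Endothelial markers lie above and macrophage markers below the line (Clec4g at 50.8 against 0.679 CPM, Lyz2 at 2240 against 9350 CPM), while contractile genes such as Acta2 lie close to it or below.

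Hk2 itself (mm10, chromosome 6, 82725025 to 82774454, minus strand) followed the labels. The ACT libraries listed it at 181, 182 and 181 CPM, the KO libraries at 10.7, 13.7 and 11.9 CPM, and the LAC libraries at 18.7, 19.6 and 19.7 CPM. The LAC level was 10.7% of the ACT level, with no overlap between groups (log2 fold change -3.17, SE 0.078, limma adjusted p = 4.71e-13). It was above that of KO (log2 fold change 0.64, limma adjusted p = 1.66e-05). By an exact two-sided permutation of the 6 LAC and ACT libraries p was 0.1, and 3 against 3 libraries allow no smaller value. Hk1, the hexokinase gene of most tissues, was higher in LAC, at 225 ± 9.91 CPM against 136 ± 2.47 CPM (SD, n = 3; log2 fold change 0.72). Hk3, a hexokinase gene of myeloid cells, was lower, at 36.3 ± 3.07 against 131 ± 4.82 CPM (-1.83), a place between the 2.58 CPM of KO and ACT.

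Of the 34 gene lists, the endothelial and the macrophage markers had the largest median differences between LAC and ACT. Their part in the results on other lists was not tested. In bulk RNA, fewer cells of a type and less RNA per cell cannot be told apart. Of 23 macrophage and Kupffer cell markers 22 were lower in LAC and 1 higher, so 100% were called, against 49.5% of all genes. Their median log2 fold change was -2.13 (all genes 0.03). Their summed level was 15450 to 15807 CPM in the ACT libraries, 562 to 584 CPM in KO and 3759 to 3808 CPM in LAC. Lyz2, the lysozyme gene of macrophages, was listed at 9165, 9462 and 9423 CPM in ACT and at 2216, 2265 and 2240 CPM in LAC. Adgre1, which encodes F4/80, fell from 364 ± 4.65 CPM in ACT to 67.4 ± 2.43 CPM in LAC, against 2.84 CPM in KO. Marco, a scavenger receptor gene of resident Kupffer cells, stood at 194 CPM in ACT and 2.33 CPM in LAC (1.2% of ACT), Cd5l at 223 and 7.30 CPM (3.27%) and Vsig4, a complement receptor gene, at 49.3 and 3.60 CPM (7.31%). Lyz2 kept 24.0% and Itgam, chosen after its values were seen, 22.7%. The 3 markers under 1 CPM in LAC, named after their values were seen, were Timd4, listed at 0 in all LAC libraries, Cd163 (0.070 CPM) and Clec4f (0.784 CPM). The marker that was higher, Mrc1 (log2 fold change 0.14), encodes the mannose receptor, which liver endothelium also makes. It was named after its values were seen and was not called with quantile scaling or against a fold of 1.2.

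Endothelial markers went the other way. Of 22 markers 21 were higher in LAC, 20 of them by at least 2-fold, and none lower. That is 95.5% called, against 49.5% of all genes, with a median log2 fold change of 3.19. The summed level was 824 to 863 CPM in ACT and 5676 to 5896 CPM in LAC, against 10363 to 11655 CPM in KO. In 20 of the 22 genes the LAC libraries lay between those of KO and ACT, against 25.0% of all genes. Clec4g, a lectin gene of sinusoidal endothelium, was at 0.354 to 0.953 CPM in the ACT libraries and at 47.4, 48.4 and 56.8 CPM in LAC (log2 fold change 4.96, SE 0.109, adjusted p = 1.46e-13). Lyve1, a hyaluronan receptor gene of the same cells, was at 8.91 ± 0.87 CPM in ACT and 181 ± 4.15 CPM in LAC (4.20), Gpihbp1 at 1.33 and 40.9 CPM (4.18), and Robo4 rose by 3.83 on the log2 scale. Vwf, the von Willebrand factor gene, named after its values were seen, was not called, at 6.24 ± 1.53 CPM in ACT and 5.28 ± 0.989 CPM in LAC.

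Hepatocyte, mesothelial and portal markers were mostly lower or not called in LAC. Of 25 hepatocyte markers 16 were lower and none higher (64% called, against 49.5% of all genes, median log2 fold change -0.83). In all LAC libraries 7 of the 25 were listed at 0. Most of the list was near the floor: 14 markers had a mean under 1 CPM in ACT and 23 in LAC. A fit to the 6 LAC and ACT libraries alone called 9 lower. It tested only the 11884 genes that reached 1 CPM in 3 of those libraries, so markers below that were not counted. Without Trf, the transferrin gene, which stood at 305 CPM in ACT and 121 CPM in LAC, the markers summed to 66.1 to 72.4 CPM in ACT and 4.35 to 5.38 CPM in LAC, against 402 to 430 CPM in KO. Alb, the albumin gene, was at 10.6 ± 1.21 CPM in ACT and 0.601 ± 0.254 CPM in LAC, against 157 ± 3.58 CPM in KO. Of 12 mesothelial and cholangiocyte markers 6 were lower and 3 higher (75% called, against 49.5% of all genes). Wt1, a transcription factor gene of mesothelium, was lower in LAC (5.89 ± 0.691 against 79.8 ± 2.71 CPM), as were Upk3b (4.61 against 58.4 CPM) and Lrrn4 (2.12 against 44.7 CPM), all markers of the same lining. The 3 that were higher encode keratins and were named after their values were seen: Krt8 (log2 fold change 1.68), Krt18 (2.47) and Krt19 (1.66). Without Spp1 the list summed to 250 to 269 CPM in ACT and 102 to 103 CPM in LAC. Among 8 portal fibroblast and smooth muscle markers 3 were lower and 1 higher (50% called, near the 49.5% of all genes). Thy1 stood at 11.2 CPM in LAC and 64.1 CPM in ACT and Fbln2 at 642 and 958 CPM, while Cnn1 is described below. Ly6a was higher, at 30.6 against 2.37 CPM. Each of the 3 listed lymphocyte and neutrophil markers (S100a8, Csf3r and Mmp8) was lower.

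**Figure D2:**
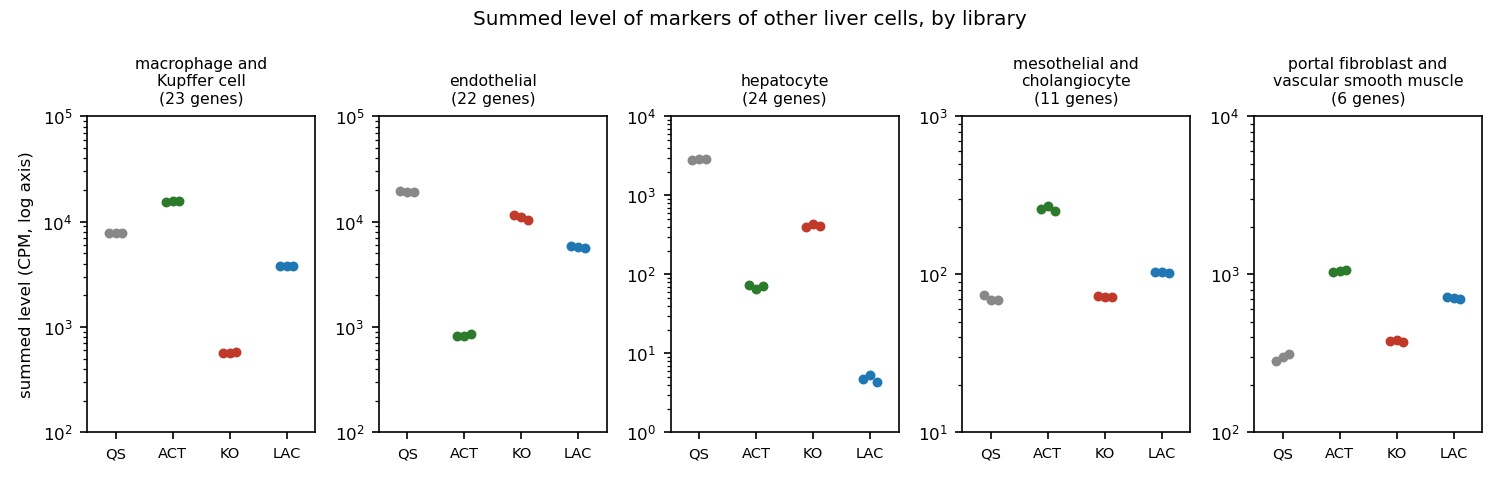
Summed CPM (log axis) of the markers of 5 other liver cell classes in each library of the 4 groups, each point a library; Trf, Spp1, Myh11 and Cnn1 are left out of the sums. In LAC the macrophage sum (3759 to 3808 CPM) lies between KO and ACT, the endothelial sum (5676 to 5896 CPM) too, and the hepatocyte sum (4.35 to 5.38 CPM) is below every other group.

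Contractile genes were partly lower. Of the 24 genes of the contractile myofibroblast list, 13 were lower, 5 higher and 6 not called in LAC against ACT. That is 75% called, against 49.5% of all genes, with a median log2 fold change of -0.14. In KO against ACT 15 were lower and 5 higher, with a median of -0.53. Against a fold of 1.2, 7 genes were called lower and 2 higher in LAC. Acta2 (chromosome 19, 34241090 to 34255590, minus strand), which encodes the alpha smooth muscle actin used to mark myofibroblasts, stood at 2624, 2711 and 2633 CPM in the ACT libraries, 675, 665 and 620 CPM in the KO libraries, and 1469, 1432 and 1401 CPM in the LAC libraries. The LAC libraries thus lay apart from both other groups at 54.0% of the ACT level (log2 fold change -0.89, SE 0.159, adjusted p = 3.35e-04). Cnn1, the gene of the actin-binding protein calponin 1, had 45.8% of its ACT level (91.9, 79.2 and 73.1 CPM against 171, 183 and 179 CPM; log2 fold change -1.12, SE 0.139). Actg2, the gene of enteric smooth muscle actin, had the lowest share of the list, 30.5%, at 22.4 ± 5.75 against 73.4 ± 3.14 CPM (-1.70, adjusted p = 0.0014). With a pseudocount of 0.1 neither Cnn1 (adjusted p = 0.0555) nor Actg2 (adjusted p = 0.137) was called, though their log2 fold changes there were -1.13 and -1.74. Cnn1 in QS ran from 0.005 to 0.418 CPM and Actg2 in KO from 0 to 2.96 CPM. Such values enter the shared estimate of the spread, and their part in the lost calls was not tested. Tagln, which encodes transgelin, stood at 68.9% of ACT, and Synpo2, an actin-bundling gene, at 50.8%.

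The 5 contractile genes that were higher in LAC, named after their values were seen, were Mylk (310 against 179 CPM, log2 fold change 0.79), which encodes the kinase of the myosin light chain, Cnn3 (0.52), Cald1 (0.20), Cnn2 (0.18) and Csrp1 (0.15). Tpm4, a tropomyosin gene, differed least, at 1050 ± 9.79 CPM in LAC and 1054 ± 17.5 CPM in ACT (95% interval of the log2 fold change -0.08 to 0.07). Myh11, the gene of smooth muscle myosin heavy chain, was not called (adjusted p = 0.71), although its LAC libraries (138, 129 and 127 CPM) all lay below its ACT libraries (164, 173 and 160 CPM). Its values in QS ran from 5.83e-07 to 11.2 CPM and enter the shared estimate of the spread, and a fit to the 6 LAC and ACT libraries alone called it (adjusted p = 6.59e-05).

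Promoter sequences of 21 of the 24 contractile genes were in the RefSeq table of the build GRCm38.p6, as 24 windows of 300 bases that run from 250 before to 50 after a transcript start. They are shown because many smooth muscle genes carry CArG boxes, the binding site of the serum response factor. A strict CArG box, searched on both strands, was found in 4 of these windows (16.7%), against 1.63% of the 32851 windows in the table and 1.28% of those of the genes listed here. The letters TATAAA, also searched on both strands, were in 3 windows (12.5%, against 13.6% and 7.39%), none of which held a CArG box. In the windows of Synpo2 and Myh9 they lay only on the strand opposite to the gene, and in a window of Cald1 on its own strand. The window of Acta2 (chr19:34255324-34255623, minus strand), whose LAC level was 54.0% of ACT, held neither by these strict letters, and that of Myl9 (chr2:156775214-156775513, plus strand), a myosin light chain gene at 93.8% of ACT and not called, held the CArG box printed in capitals.
Acta2: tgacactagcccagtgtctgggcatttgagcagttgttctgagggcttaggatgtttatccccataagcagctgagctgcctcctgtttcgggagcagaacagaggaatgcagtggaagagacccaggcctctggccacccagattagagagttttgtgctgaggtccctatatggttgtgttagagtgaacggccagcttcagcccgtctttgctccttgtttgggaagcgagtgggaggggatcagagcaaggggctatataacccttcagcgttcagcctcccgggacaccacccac
Myl9: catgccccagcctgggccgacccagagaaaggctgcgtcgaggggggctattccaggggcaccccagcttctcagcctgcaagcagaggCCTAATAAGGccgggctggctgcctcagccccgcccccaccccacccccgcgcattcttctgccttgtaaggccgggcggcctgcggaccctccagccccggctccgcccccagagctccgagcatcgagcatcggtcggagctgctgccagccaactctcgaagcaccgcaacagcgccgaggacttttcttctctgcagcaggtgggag
The other matches were in windows of Cnn2, Myl6 and Vcl. A match describes the letters of a window, and binding was not measured. Elements a base away from the strict pattern were not searched, and the known CArG elements of the Acta2 promoter are of that kind. Actg2, Tagln and Myh11 had no entry.

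Genes of the fibrillar matrix were split between lower and higher. Of 33 genes, 11 were lower, 13 higher and 9 not called in LAC against ACT (median log2 fold change -0.03). The share called was 72.7%, against 49.5% of all genes. KO had 19 lower and 9 higher against ACT (median -0.52). Type I and III collagen genes stayed lower. Col1a1 (chromosome 11, 94936224 to 94953042, plus strand) was listed at 5356, 5284 and 5383 CPM in ACT and at 2828, 2667 and 2577 CPM in LAC, 50.4% of the ACT level. Col1a2 (chromosome 6, 4504814 to 4541544, plus strand), which encodes the other chain of the same fibril, was listed at 3316, 3284 and 3316 CPM in ACT and at 696, 693 and 683 CPM in LAC, 20.9% of ACT (log2 fold change -2.26, SE 0.039, adjusted p = 1.62e-14). The 2 genes of type I collagen thus stood at different shares of their control level, -0.99 and -2.26 on the log2 scale, with 95% intervals of -1.08 to -0.90 and -2.34 to -2.17. Col3a1 had 69.1% of its ACT level (1086 ± 23.0 against 1572 ± 13.2 CPM) and Lox, which encodes the oxidase that crosslinks collagen, 61.5%. Its relative Loxl1, looked at after its values were seen, had 27.9%. The 3 listed type VI collagen genes, also looked at afterwards, were all lower: Col6a1 by 0.76, Col6a2 by 1.22 and Col6a3 by 0.88 on the log2 scale.

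Fn1 and Spp1 had the lowest shares of the matrix list. Fn1 (chromosome 1, 71585520 to 71653200, minus strand), the fibronectin gene, went from 11337 ± 214 CPM in ACT to 2078 ± 105 CPM in LAC (18.3% of ACT, log2 fold change -2.45, adjusted p = 1.54e-13). Spp1, the osteopontin gene, went from 5084 ± 88.0 to 1030 ± 9.88 CPM (20.3%, -2.30). Macrophages also express both genes, and the macrophage markers had a median of 21.1% of their ACT level in the same libraries; their part in the lower Fn1 and Spp1 was not tested.

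Other matrix genes stood above the control. Thbs2 (chromosome 17, 14665500 to 14694235, minus strand), which encodes thrombospondin 2, stood at 24.5, 21.4 and 22.0 CPM in the ACT libraries, 58.3, 65.3 and 60.2 CPM in the KO libraries, and 149, 154 and 145 CPM in the LAC libraries, so that the LAC libraries were highest of the 3 groups (log2 fold change 2.67, SE 0.079, adjusted p = 3.26e-12). The following were named after their values were seen. Tnc, the gene of the matrix glycoprotein tenascin C, was at 4506 ± 117 CPM in LAC and 1480 ± 8.23 CPM in ACT (1.61). Postn, which encodes periostin, was at 370 ± 15.0 against 157 ± 4.54 CPM (1.23), and Col11a1, a minor fibrillar collagen gene, at 94.0 ± 2.89 against 42.9 ± 0.96 CPM (1.11). Col11a1 had been lower than ACT in KO (15.6 ± 1.57 CPM). Over the list, all LAC libraries were above every ACT and KO library in 12 of 33 genes, against 7.81% of all genes. Serpinh1, the collagen chaperone gene, was not called (95% interval -0.14 to 0.07).

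**Figure D3:**
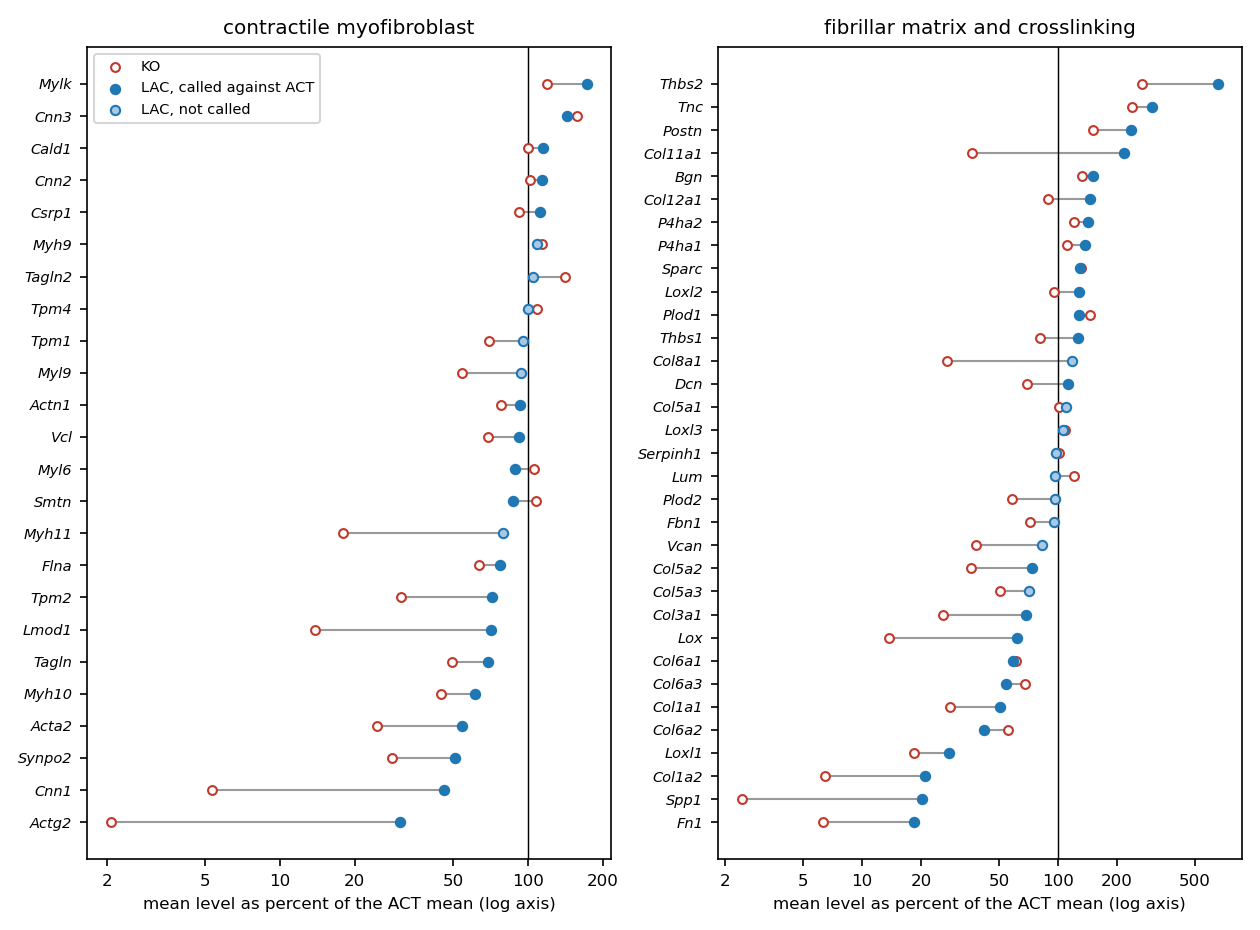
Mean level of each contractile gene (left) and fibrillar matrix gene (right) in KO (open circles) and LAC (filled circles, pale where not called) as a percent of its ACT mean, on a log axis; the vertical line is the ACT level. Actg2 (30.5%), Fn1 (18.3%), Spp1 (20.3%) and Col1a2 (20.9%) remain at the low end, and Mylk (173%) and Thbs2 (660%) at the high end.

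Basement membrane genes were mainly higher. Of 20 genes 11 were higher and 4 lower (75% called, against 49.5% of all genes, median log2 fold change 0.36). Col4a1, which encodes a chain of the collagen IV network, was at 5762 ± 73.5 CPM in LAC and 2893 ± 41.5 CPM in ACT (log2 fold change 0.99), and Col4a2, its partner, at 2934 ± 86.9 and 1509 ± 17.9 CPM (0.96). Nid1, the gene of the linker protein nidogen 1, was at 4411 ± 59.6 against 1812 ± 13.6 CPM (1.28), and Lama1, a laminin gene, at 50.1 ± 0.611 against 10.2 ± 0.397 CPM (2.19). Endothelial cells make basement membrane too, and their markers were higher in the same libraries (median 3.19); their part was not tested. The 4 lower genes were Col4a6 (3.25 against 28.2 CPM, -2.78) and, named after their values were seen, Col15a1 (-0.95), Col4a5 (-0.54) and Lama4 (-0.29). Hspg2, the perlecan gene, was not called (log2 fold change 0.06).

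Genes of matrix turnover were split as well. Of 24 genes 12 were lower and 9 higher (87.5% called, against 49.5% of all genes, median log2 fold change -0.31). Mmp12, Mmp9 and Mmp8, proteases of macrophages and neutrophils, were lower: Mmp12 went from 2522 ± 62.7 CPM in ACT to 470 ± 8.33 CPM in LAC (-2.42), Mmp9 from 34.3 to 4.91 CPM (-2.58) and Mmp8 from 14.9 to 1.02 CPM (-2.99). The macrophage markers moved in the same direction, and their part was not tested. Mmp3, the stromelysin 1 gene, was higher, at 224, 238 and 243 CPM in LAC against 37.0, 32.6 and 33.6 CPM in ACT (log2 fold change 2.74, SE 0.079). Mmp10, the gene of stromelysin 2, looked at after its values were seen, was at 494 ± 11.1 against 133 ± 0.929 CPM (1.89). Of the tissue inhibitors, Timp1 had 71.6% of its ACT level (169 ± 1.91 against 237 ± 4.27 CPM, adjusted p = 0.00344) and was not called with a pseudocount of 0.1 (adjusted p = 0.0732) or against a fold of 1.2 (adjusted p = 0.142). The inhibitors Timp2 and Timp3, named after their values were seen, differed in opposite directions, at 52.3% and 197% of ACT.

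Signals of the TGF-beta family, whose ligands drive the myofibroblast state, were more often higher than lower. Of 35 genes 20 were higher and 9 lower (82.9% called, against 49.5% of all genes, median log2 fold change 0.24). Against a fold of 1.2, 13 were called higher and 5 lower. Among ligands, Tgfb1 was at 118 ± 11.3 CPM in LAC and 145 ± 6.68 CPM in ACT (log2 fold change -0.30, adjusted p = 0.00542), and it was not called against a fold of 1.2 (adjusted p = 0.739). Inhbb, an activin subunit gene, was at 64.8 ± 4.36 against 17.9 ± 2.29 CPM (1.80), Bmp4 at 43.2 ± 1.30 against 12.7 ± 0.409 CPM (1.69) and Bmp5 at 70.6 ± 4.18 against 23.0 ± 0.591 CPM (1.57). Among receptors, Eng, the endoglin gene, was at 1102 ± 30.7 against 209 ± 8.31 CPM (2.39); it is also a member of the endothelial list. Tgfbr1, which encodes the signalling receptor of TGF-beta, was looked at after its values were seen and had 37.6% of its ACT level (52.0 ± 4.18 against 138 ± 4.08 CPM). Latent binding proteins, also named afterwards, went both ways, with Ltbp1 at 211% and Ltbp2 at 44.1% of ACT. Skil, a feedback inhibitor gene, was not called (log2 fold change 0.01).

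Genes that respond to YAP and to the serum response factor, sensors of tension and actin, were higher in 14 and lower in 2 of 21 cases (median log2 fold change 0.37). That is 76.2% called, against 49.5% of all genes. The list also holds factors of the pathway: Wwtr1, which encodes TAZ, the paralogue of YAP, was higher by 0.97 and Tead4 by 1.33 on the log2 scale. Of the other members, Crim1 was higher by 0.95 and F3, the tissue factor gene, by 0.96. In KO against ACT, F3 was lower (-0.59). The 2 lower genes, named after their values were seen, were Ankrd1 (-0.52) and Vcl (-0.12). Of 25 growth factor and receptor genes 14 were higher and 5 lower (76% called, against 49.5% of all genes, median 0.38). Pdgfrb, the receptor of the main stellate cell mitogen, was at 159 ± 4.08 CPM in LAC against 95.7 ± 1.77 CPM in ACT (0.73), while Pdgfra did not differ detectably, at 235 ± 5.66 and 235 ± 3.37 CPM (95% interval -0.07 to 0.07). Hgf, the hepatocyte growth factor gene, was at 77.4 ± 1.41 against 21.4 ± 1.07 CPM (1.81) and Kdr, a VEGF receptor gene of endothelium, at 246 against 27.4 CPM (3.12). Pdgfc was lower, at 1.66 against 8.15 CPM, and so was Igf1, chosen after its values were seen, at 105 ± 3.48 against 336 ± 9.61 CPM (-1.67). The other 3 lower members, also named from their calls, were Met, Igfbp3 and Vegfd.

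Genes of the quiescent state stood above the control after lactate. Of 34 genes of the quiescent stellate and retinoid list, 23 were higher, 6 lower and 5 not called in LAC against ACT. That is 85.3% called, against 49.5% of all genes, with a median log2 fold change of 0.90. By at least 2-fold, 16 were higher. In KO against ACT 28 were higher and 5 lower, with a median of 1.60. In LAC against KO 15 were lower and 10 higher (median -0.29). Rgs5, a regulator of G protein signals in pericytes, stood at 8.63, 8.67 and 8.09 CPM in the ACT libraries, 80.8, 88.0 and 88.7 CPM in the KO libraries, and 91.3, 85.9 and 86.7 CPM in the LAC libraries. LAC and KO overlapped, and both lay apart from ACT (LAC against ACT 3.23, SE 0.051, adjusted p = 7.43e-15). Lrat, which esterifies retinol for storage, was at 14 ± 2.00 CPM in LAC, 17.4 ± 2.30 CPM in KO and 3.09 ± 0.637 CPM in ACT (1.88), well under its QS mean of 352 CPM. Prelp, a small leucine-rich proteoglycan gene, was at 515 ± 32.7 CPM in LAC, 59.9 ± 3.72 CPM in ACT and 237 ± 8.21 CPM in KO (3.08). Reln, the reelin gene that marks stellate cells in liver, was at 305 ± 0.713 against 107 ± 0.869 CPM (1.51). Gata4, a transcription factor gene of quiescent stellate cells, was at 129 ± 1.2 CPM in LAC, 35.8 ± 2.41 CPM in ACT and 199 ± 6.03 CPM in KO (1.82). Lower members included Des, the desmin gene, at 186 ± 13 against 346 ± 4.07 CPM (-0.89), and, named after its values were seen, the lipid droplet gene Plin2 (-1.37), which macrophages also express. Endothelial markers were higher in the same libraries (21 of 22, summed level 5676 to 5896 CPM in LAC against 824 to 863 CPM in ACT) and were high in KO and QS too, and their part in the quiescent list's values was not tested.

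**Figure D4:**
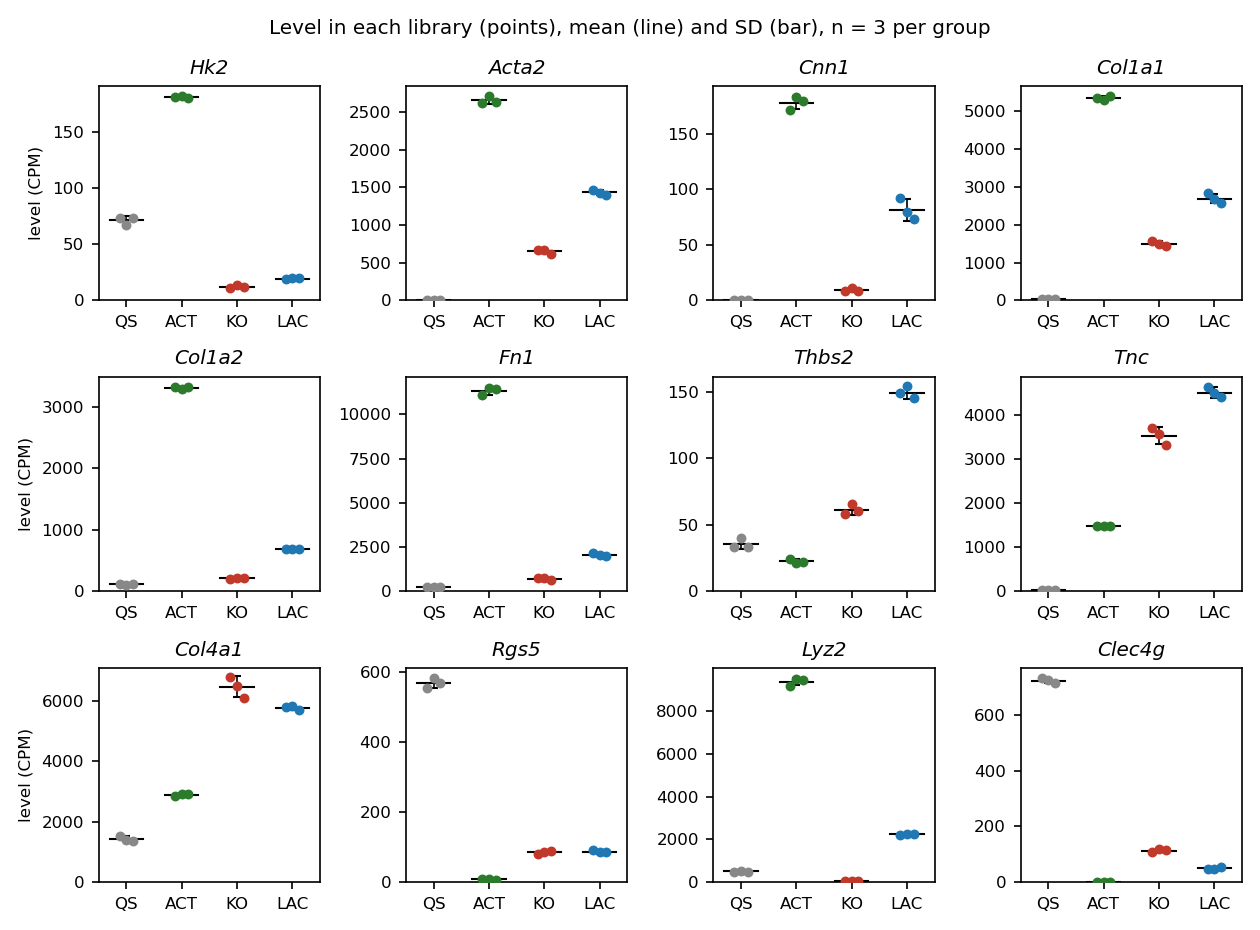
CPM of 12 genes in each library (points), with the group mean (line) and SD (bar, n = 3), for QS, ACT, KO and LAC; vertical axes start at 0 and differ between panels. Acta2, Cnn1, Col1a1, Col1a2 and Fn1 lie between KO and ACT in LAC, Thbs2 and Tnc are highest in LAC, and Rgs5 is at a like level in KO and LAC (85.8 and 88.0 CPM), far above ACT.

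Glycolysis genes other than Hk2 were higher or not called, apart from Hk3. Of these 21 genes, Hk1 and Hk3 included, 12 were higher, 1 lower and 8 not called (median log2 fold change 0.21), with Hk1 among the higher. The share called was 61.9%, against 49.5% of all genes. Against a fold of 1.2, 3 of them were called higher. Pfkfb3, which makes an activator of glycolysis, was at 116 ± 3.25 against 76.6 ± 4.77 CPM (0.59). Pfkfb4 (0.74) was called too, but LAC and ACT libraries overlapped, and it was not called without LAC replicate 1 (adjusted p = 0.0788) or without ACT replicate 3 (adjusted p = 0.0782). Gpi1 was not called (377 against 361 CPM, 0.06). Ldha, which makes lactate from pyruvate, stood at 640, 632 and 651 CPM in the ACT libraries, 582, 586 and 596 CPM in the KO libraries, and 756, 766 and 740 CPM in the LAC libraries (0.23, adjusted p = 2.90e-05), highest in LAC. Ldhb, whose enzyme favours the reverse step, was lower, at 26.8 ± 2.20 against 35.3 ± 1.31 CPM (-0.38).

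Lactate carriers differed in both directions. Slc16a3, the exporter MCT4, was at 46.3 ± 0.562 CPM in LAC against 35.8 ± 0.914 CPM in ACT and 15.4 ± 1.2 CPM in KO (log2 fold change 0.36). Slc16a1, the carrier MCT1, was at 35.1 ± 2.84 CPM in LAC against 41.3 ± 1.33 CPM in ACT (-0.23, adjusted p = 0.0108), a call lost without LAC replicate 2 (adjusted p = 0.0527). None of Ldha, Ldhb, Slc16a1 and Slc16a3 was called against a fold of 1.2 (adjusted p from 0.22 to 1). Slc16a7, the carrier MCT2, had a larger difference, 5.44 ± 0.324 against 19.6 ± 1.53 CPM (-1.68). Of the 20 genes of lactate carriers and pyruvate handling 8 were higher and 6 lower (70% called, against 49.5% of all genes, median 0.09). Pdk4, an inhibitor kinase of pyruvate dehydrogenase, was at 105 ± 2.19 against 39.5 ± 0.732 CPM (1.39). Pcx, the pyruvate carboxylase gene, was at 30.4 ± 5.11 against 12.9 ± 2.12 CPM (1.17).

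Histone acyltransferase and deacylase genes changed little. Of 28 genes 3 were higher, 7 lower and 18 not called, so 35.7% were called, against 49.5% of all genes, and against a fold of 1.2 only 1 was called higher and 2 lower. Ep300, the gene of p300, an acetyltransferase that can also add lactyl groups, was listed at 120, 124 and 117 CPM in ACT and at 118, 119 and 114 CPM in LAC. These overlapped, with a log2 fold change of -0.04 and a 95% interval of -0.18 to 0.09. Its relative Crebbp was at 82.3 ± 3.75 against 77.7 ± 2.96 CPM (0.08, 95% interval -0.08 to 0.25). The 3 higher genes were Hdac1 (0.43), Hdac7 (0.54) and, named after its values were seen, Hdac2 (0.31). Among lower ones, Hdac9 was at 1.26 ± 0.0491 against 10.8 ± 0.792 CPM (-2.38) and Hdac5 at 15.9 against 27.8 CPM (-0.76).

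Other metabolic lists had medians between -0.40 and 0.25 on the log2 scale. Of 21 tricarboxylic acid cycle genes 8 were lower and 5 higher (61.9% called, against 49.5% of all genes, median log2 fold change -0.12). The lower were led by Idh1, the cytosolic isocitrate dehydrogenase gene, at 113 ± 7.78 against 260 ± 11.4 CPM (-1.19). The 5 higher, named from their calls, were Cs, Idh3b, Ogdh, Dlst and Suclg2, none of which was called against a fold of 1.2. In the pentose phosphate and hexosamine list 5 of 14 were lower and 2 higher (50% called, near the 49.5% of all genes). The higher were Gfpt2, an entry enzyme of the hexosamine pathway (0.89), and Taldo1 (0.38). The lower, named from their calls, were Pgd, Gfpt1, Gnpnat1, Uap1 and Ogt. Sterol synthesis genes were lower in 14 and higher in 1 of 22 cases (68.2% called, against 49.5% of all genes, median -0.40). The lower included Mvd (-0.88), Dhcr7 (-0.82) and Cyp51 (45.5 ± 0.393 against 77 ± 1.59 CPM, -0.75). None was called at 2-fold or more, and against a fold of 1.2, 6 were called lower and none higher. Fatty acid genes were lower in 10 and higher in 4 of 23 cases (60.9% called, against 49.5% of all genes). The higher were Scd1, Scd2, Dgat2 and Plin3, named from their calls, of which 2 were called with quantile scaling. Lpl, the lipoprotein lipase gene, was at 693 ± 12.3 against 2307 ± 58.9 CPM (-1.73), and Cd36, a fatty acid receptor gene, at 107 against 262 CPM (-1.22); macrophages express both, and the part of those cells was not tested. Of 13 mitochondrially encoded genes 7 were higher and none lower (53.8% called, against 49.5% of all genes), with mt-Nd2 the largest (0.55), and against a fold of 1.2 only 1 was called. Among them mt-Co2 was not called (-0.04), but it was called higher with quantile scaling (0.23) and lower without ACT replicate 3 (-0.13).

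Cell cycle genes were more often lower than higher, while the D-type cyclins were higher. Of 38 genes 20 were lower, 5 higher and 13 not called (median log2 fold change -0.29). That is 65.8% called, against 49.5% of all genes. Against a fold of 1.2, 12 were called lower and 3 higher. Mki67, the proliferation marker, was listed at 311, 316 and 315 CPM in ACT and at 161, 161 and 164 CPM in LAC, 51.5% of ACT (-0.95, SE 0.049, adjusted p = 1.12e-09). Tk1, a thymidine kinase gene of S phase, was at 9.06 ± 1.12 against 23.1 ± 2.28 CPM (-1.26). The 5 higher genes were Ccnd1 (637 ± 11.3 against 293 ± 4.03 CPM, 1.12), Ccnd2 (1550 ± 27.7 against 804 ± 12.4 CPM, 0.95) and, named after their values were seen, Ccnd3 (0.86), Ccne1 (0.46) and Rrm2 (0.45). The first 3 encode the D-type cyclins, which act in G1 phase.

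Targets of p53, the tumour suppressor that halts the cycle, were higher in 21 of 24 cases and lower in 2 (median log2 fold change 0.72). That is 95.8% called, against 49.5% of all genes. In all 24 genes LAC and ACT libraries did not overlap, against 62.8% of all genes. Trp53inp1 was at 123 ± 3.59 against 46.2 ± 3.58 CPM (1.39), Tnfrsf10b, a death receptor gene, at 123 against 56.4 CPM (1.11) and Perp at 12.8 ± 1.12 against 3.32 ± 0.411 CPM (1.68). Cdkn1a, the p21 gene, looked at after its values were seen, was at 546 ± 22.5 CPM in LAC, 644 ± 15.5 CPM in KO and 276 ± 2.52 CPM in ACT (0.98). The 2 lower genes were Sesn1 (-1.61) and, named afterwards, Cd80 (-0.63), a costimulatory gene of immune cells. All LAC and KO libraries had received Cre and no ACT library had, and the part of Cre in these differences was not tested.

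In the integrated stress response and serine synthesis list 16 of 24 genes were lower and 4 higher. That is 83.3% called, against 49.5% of all genes (median log2 fold change -0.53). Atf3 (52.2 ± 1.32 against 115 ± 3.81 CPM, -1.12), Aldh1l2 (-1.01) and Vldlr (-1.25) were lower and Ppp1r15a (1.10) higher. The other 3 higher members, named after their values were seen, were Sesn2, Ddit4 and Slc7a1. Slc7a11, the cystine importer gene, was looked at after its values were seen and was at 29.1 ± 2.93 CPM in LAC, below ACT (49.6 ± 1.98 CPM) and KO (83.1 ± 3.46 CPM). Hypoxia targets were higher in 10 and lower in 1 of 16 cases (68.8% called, against 49.5% of all genes, median 0.36). Adm, the adrenomedullin gene, was at 140 ± 6.88 against 39.2 ± 0.943 CPM (1.80) and Ndrg1 at 45.4 ± 0.253 against 13.4 ± 1.31 CPM (1.69). Bnip3, a mitophagy receptor gene, was at 66.5 ± 2.60 against 31.6 ± 1.61 CPM (1.05). The lower one, named after its values were seen, was Egln3 (-0.31), a call lost without LAC replicate 2, without any 1 of the ACT replicates and with the replicate number as a block, and Hif1a was not called (-0.04). Unfolded protein response genes were higher in 6 and lower in 5 of 19 cases (57.9% called, near the 49.5% of all genes), the latter Pdia6, Sdf2l1, Edem1, Sel1l and Hyou1, named from their calls. Antioxidant and glutathione genes were higher in 14 and lower in 7 of 24 cases (87.5% called, against 49.5% of all genes, median 0.19). Gpx3, a secreted glutathione peroxidase gene, was at 422 ± 10.8 CPM in LAC against 67.0 ± 1.2 CPM in ACT and 161 ± 13 CPM in KO (2.63), and Gpx1 was lower (-1.22). Immediate early genes were higher in 15 and lower in 4 of 25 cases (76% called, against 49.5% of all genes, median 0.27). Egr1 was higher, at 116 ± 1.70 against 48.9 ± 1.56 CPM (1.23). Egr2 was lower (8.83 against 24.9 CPM, -1.40), as were Atf3 and, named from their calls, Fos and Klf2.

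Lysosomal and antigen presentation genes were mainly lower, while chemokine and interferon response genes went both ways. Of 26 lysosome genes 25 were lower and none higher (96.2% called, against 49.5% of all genes, median log2 fold change -0.92). Ctsd, the cathepsin D gene, was listed at 10318, 10297 and 10543 CPM in ACT and at 3503, 3426 and 3379 CPM in LAC (33.1% of ACT, -1.60), and Ctss, a cathepsin of antigen-presenting cells, at 29.4% of ACT (738 ± 21 against 2511 ± 36.2 CPM). Gaa was not called (-0.17), though it was with quantile scaling (-0.24, adjusted p = 0.0197). In 23 of the 26 genes the LAC libraries lay between KO and ACT, against 25.0% of all genes. Among 25 chemokine and cytokine genes 13 were lower and 9 higher (88% called, against 49.5% of all genes, median -0.48). The macrophage chemokine genes Ccl6 (98.5 ± 1.53 against 895 ± 18.3 CPM, -3.17) and Ccl9 (34.2 ± 3.30 against 362 ± 9.50 CPM, -3.37) and the receptor antagonist gene Il1rn (-2.77) were lower. Ptgs2 (609 ± 25.0 against 268 ± 8.49 CPM), the inducible cyclooxygenase gene, and Lif (41.9 against 14.6 CPM, 1.46), a cytokine gene, were named after their values were seen and were higher. Of 15 antigen presentation genes 11 were lower and 1 higher (Tap1, named after its values were seen). That is 80% called, against 49.5% of all genes. Cd74, the invariant chain gene, was at 2.20 ± 0.492 against 18.8 ± 1.42 CPM (-2.64). Interferon response genes were higher in 8 and lower in 7 of 28 cases (53.6% called, near the 49.5% of all genes, median -0.06). The macrophage sum of 3759 to 3808 CPM in LAC against 15450 to 15807 CPM in ACT stands beside the lysosomal, chemokine and antigen presentation results, and its part in them was not tested.

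**Figure D5:**
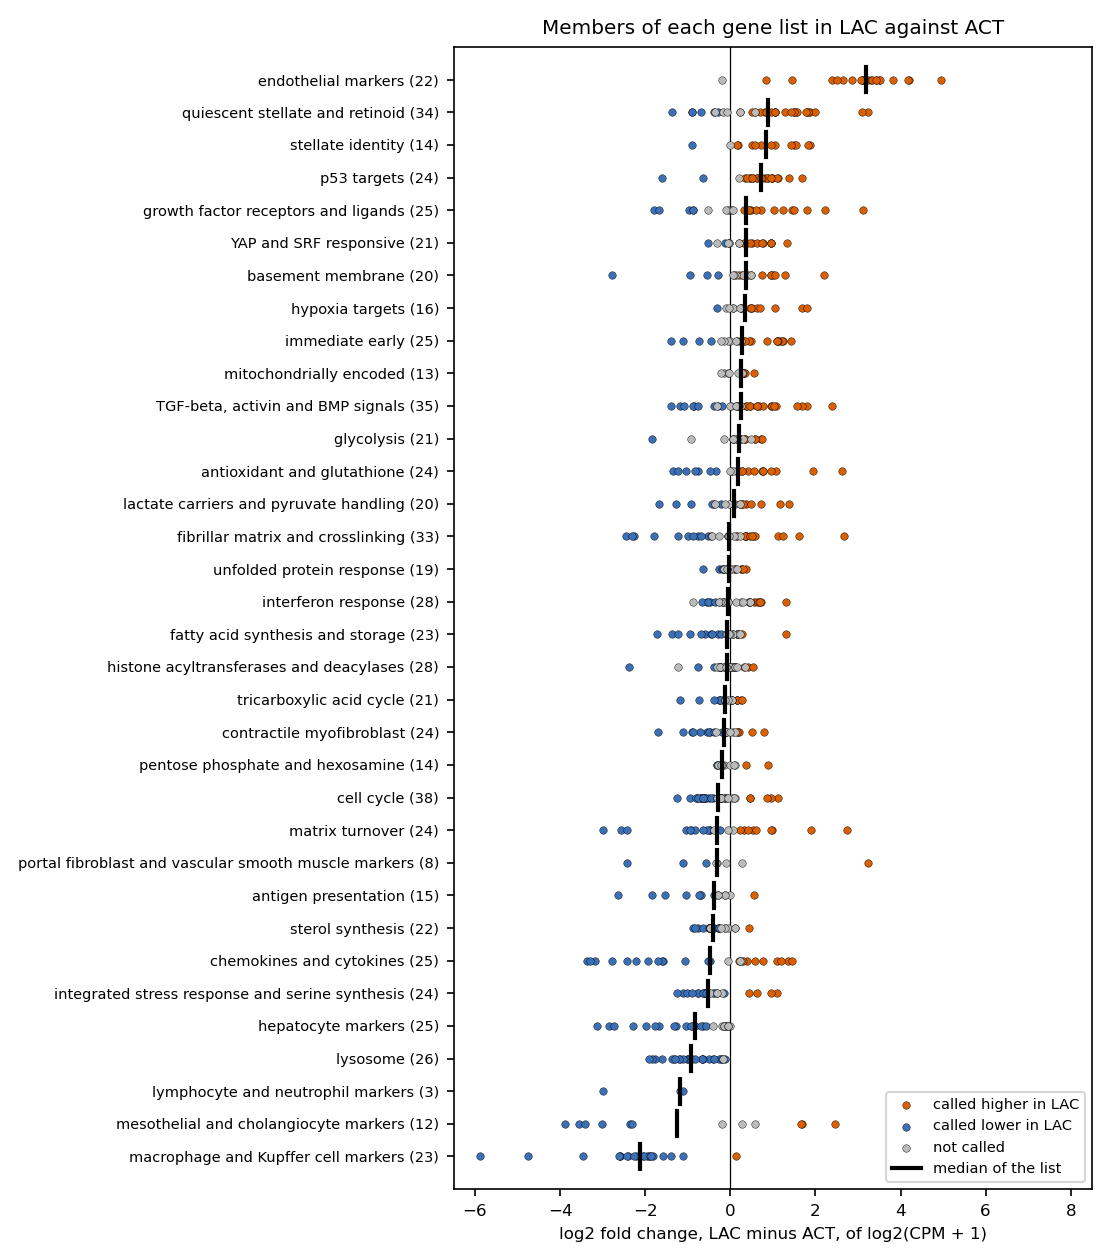
Log2 fold change of LAC against ACT for every measured member of 34 gene lists (points, coloured by whether limma called the gene higher, lower or neither), with the list median as a bar and the number of members in brackets. Endothelial markers (median 3.19) and macrophage markers (median -2.13) lie at the ends, and the contractile (-0.14) and fibrillar matrix (-0.03) medians near 0 with members on both sides.

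Several of the largest single differences were in genes of other cells. Among the 10 genes with the largest rises were Clec4g, Lyve1 and Gpihbp1 of the endothelial list, and Clec14a (57.6 against 2.35 CPM) and Gpr182 (37.2 against 1.33 CPM), also known from endothelium. With a pseudocount of 1 the first in rank was A2m, the alpha-2-macroglobulin gene of a protease inhibitor, listed at 97.2, 99.2 and 94.5 CPM in LAC and at 1.2, 1.13 and 1.46 CPM in ACT, a log2 fold change of 5.44 (SE 0.167, adjusted p = 5.07e-12). KO stood at 74.5 ± 1.46 CPM and QS at 0.734 CPM. Psg22, of a family of pregnancy-specific glycoprotein genes with similar sequences, was at 89.5 ± 6.02 CPM in LAC, 88.2 ± 1.25 CPM in KO and 2.43 ± 0.104 CPM in ACT (4.72). Nefl, a neurofilament gene, was at 16.2 ± 1.16 CPM in LAC, 14.4 ± 1.38 CPM in KO and 0.11 ± 0.134 CPM in ACT. With a pseudocount of 0.1 its log2 fold change (6.47) passed that of A2m (6.16). In A2m, Psg22 and Nefl, the levels of LAC and KO were high while those of QS and ACT were low. Fmo1 and Afap1l1 completed the list with log2 fold changes of 4.31 and 4.09.

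Among the 10 largest falls, Marco and Cd5l are Kupffer cell markers, and Chil3, a gene of alternatively activated macrophages, went from 269 ± 2.82 CPM in ACT to 4.09 ± 0.185 CPM in LAC and was listed at 0 in all KO libraries. Saa3, an acute phase gene, went from 178 ± 9.73 to 4.60 ± 0.294 CPM. Prg4, the lubricin gene that mesothelium also expresses, was at 89.3 ± 9.68 CPM in ACT and 0.675 ± 0.267 CPM in LAC (-5.76). Angptl7 was listed at 33.5, 30.4 and 32.3 CPM in ACT and at 0, 0.123 and 0 CPM in LAC, less than 3 reads. Enpp3 (0.860 against 54.7 CPM) and Stk26 (1.25 against 54.7 CPM) were lower too. The remaining 2, Rps18-ps6 and Rps18-ps5, are named as pseudogenes of a ribosomal protein and share sequence with it, so their values are uncertain.

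A part of the transcriptome was close to the control. Of the 12081 genes 6101 were not called, and for 6324 genes (52.3%) the 95% interval of the log2 fold change lay within a 1.5-fold difference on either side, 4273 of them not called. Members of this kind that the lists hold include Tpm4, Serpinh1, Pdgfra, Ep300 and Gpi1. An absent call alone does not show that a gene was at its control level.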

How the data were processed

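RNA from 12 libraries was made with a stranded mRNA kit, per the labels' protocols. The deposited table gives a signal per gene and library: read counts normalized to library size by the authors and further scaled, since column totals run from 959233 to 1047040. The tools named in the processing notes of the submitters are edgeR 3.8, kallisto 0.44.0, cutadapt 1.18 and FastQC 0.11.8, and the build is mm10; their roles are not given in the sources used here. Every gene of the table reached 1 CPM in 3 or more of the libraries, so low genes had been removed before deposit, and the normalization cannot show a change in total RNA. No count test was run, since 32.2% to 37.5% of the values below 60 reads were whole reads (within 0.02).

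Values were tested as log2(CPM + 1) with limma 3.58.1 (R 4.3.3), a scale that understates the change of low genes, with 4 group means fitted to 12 libraries (8 residual degrees of freedom), an intensity trend and Benjamini-Hochberg adjustment over all genes. Genes were called at an adjusted p under 0.05. The fit was also tested on simulated data. The 34 gene lists (3 to 38 members listed, some shared) and the comparison were chosen with earlier results of these data known. Named were 35 fixed genes, the 10 largest rises and 10 largest falls (higher mean 5 CPM or more, libraries not overlapping), up to 4 called members per list, and per list an uncalled gene of at least 20 CPM; others are marked as chosen after their values were seen. Coordinates come from GENCODE M21, in which 11887 listed symbols matched a single gene. The labels do not say whether replicate numbers pair the samples, and the main fit used no pairing. Alternatives were other pseudocounts, filters, scalings, moderation, thresholds, fewer libraries and a replicate block.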

Additional observations from a re-analysis of the deposited data

How the results depend on the processing

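The counts of genes called higher (3362) and lower (2618) in LAC stayed within 1.5 times under 19 of 20 alternatives. The exception was limma's test against a fold of 1.2, which left 1750 higher and 1360 lower genes. With a pseudocount of 5, 490 genes were called higher by at least 2-fold, against 781. Leaving out a LAC or ACT library in turn gave 3041 to 3067 genes higher, 2311 to 2399 lower, 768 to 793 higher by at least 2-fold and 711 to 765 lower by at least 2-fold. Of 1360 recomputed list counts 56 moved by over 1.5 times. Hk2 kept its direction and its call under each alternative. With the replicate number as a block, 3366 genes were higher and 2586 lower, 783 and 744 of them by at least 2-fold. None of the 186 genes of the naming rule changed its call, while Egln3 lost it. Deviations of same-numbered LAC and ACT libraries from their group means had correlations of -0.0354 to -0.0004. The labels do not say whether the numbers pair samples, and these correlations cannot settle it. The share of higher among called genes moved from 56.2% to between 52.0% and 58.2% over the 3 other scalings. Of 186 named genes, 28 changed their call under some alternative. A filter of 1 CPM in 3 libraries removes no gene, so the alternative without a filter was not run separately. A reversal was seen for mt-Co2, at 0.23 with quantile scaling (adjusted p = 0.0152) against -0.04; the cause was not tested. Where 3 reads correspond to 0.338 CPM, differences between levels under that are not detectable.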
